A study of Mus musculus with 2 samples.

Results

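The Toll-like receptors measured here were the 10 mouse genes Tlr1, Tlr2, Tlr3, Tlr4, Tlr5, Tlr6, Tlr7, Tlr8, Tlr9 and Tlr13. They were found as the probes outside the controls whose gene name in the array files equals 1 of these symbols, which gave 21 of 56605 probes, for 10 of 37325 genes. The data come from 2 one-colour Agilent arrays of total RNA from mouse blood, 1 after heat and 1 of a control. Heating meant a water bath of 37 °C for 1 h followed by 38.5 °C for 1 h. For the control no temperature or time is given, so effects of heat, of the pretreatment and of handling cannot be told apart. Strain, sex and age are not given, nor is it stated whether animals or drawn blood were heated. The comparison asks which genes differ after heat. With 1 array a group there is no replicate check, no p-value is given for any difference, and the number of arrays limits the precision.

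Toll-like receptors are membrane proteins of innate immunity that bind molecules typical of microbes. Receptors on the cell surface bind lipids and proteins of the microbial envelope, and those in endosomes bind nucleic acids after uptake of microbes or cell debris. Binding recruits the adaptor proteins Myd88 or Ticam1, which lead through kinases and ubiquitin ligases to NF-kB and interferon regulatory factors and so to cytokine genes. Monocytes, macrophages, dendritic cells, neutrophils and B cells each carry their own set of these receptors.

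Probe sequences are shown for Tlr4, Tlr7 and Tlr8, the genes with 3 or more probes, because the position of a probe decides which transcripts it reads. Their probes did not give the same detection or the same difference, and nor did those of Tlr3, Tlr5 and Tlr13. Each line gives bases 31 to 60 of a probe of 60 bases, as deposited, 5′ to 3′, in lower case, and capitals mark AATAAA, the common polyadenylation signal. Coordinates are mm9, the build in the file headers. Tlr4 had these probes on the plus strand.
Tlr4 at chr4:66500344-66500403: actaacaagtttagagaatctggtggctgt
Tlr4 at chr4:66503724-66503782: tcagaaaagtatggaggtttcttggtaaac
Tlr4 at chr4:66591199-66591258: ttgagtttctgccttgacttcccaagtgat
Tlr7 had these on the minus strand.
Tlr7 at chrX:163747214-163747273: gtttggggcagcaagagacatggctcagtg
Tlr7 at chrX:163743146-163743205: gttgtcatggctcagattggtgggaaatca
Tlr7 at chrX:163742863-163742922: gttcaatgaAATAAAagcccagagaacttc
Tlr8 had these on the minus strand.
Tlr8 at chrX:163697346-163701688: ttgtgtctagggctcctagatttcatcatt
Tlr8 at chrX:163680715-163680774: tgactgaaaatgattcacggtatgacgatt
Tlr8 at chrX:163680628-163680685: aaacacacagcttctccttacaatgaactg
Tlr8 at chrX:163679328-163679387: tatcctctctccaaaacttctcacatgccc

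AATAAA occurred in 4 of the 21 Toll-like receptor probes (19.0%), 1 each of Tlr2, Tlr3, Tlr7 and Tlr13, and in 9.8% of all 56605 probes. Its reverse complement TTTATT occurred in 0 of the 21 and in 3.8% of all probes. The distal Tlr4 probe, which the array files tie to an Ensembl transcript and not to a RefSeq record, lies 87.4 kb beyond the other 2 probes of the gene. The Tlr4 probes together span 90915 bases, while the gene is 19031 bases long in RefSeq's GRCm38.p6 table (a later build), so the probes cannot all lie within a gene of that length. The first Tlr8 probe listed joins stretches that lie apart in the genome.

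The arrays shared a slide and a scan. The software counted 53.8% of the 56605 probes as well above background with heat and 52.0% in the control, and no spot was saturated. All 11 monocyte and macrophage markers were detected on each array, as were 7 of 10 neutrophil markers, 3 of 7 B cell markers and 1 of 6 red cell markers. Csf3r and S100a9 of neutrophils were among those detected and Cxcr2 and Ly6g were not, and of B cells Ms4a1, Cd79a and Pax5 were not. Of red cells Hba-a1 was detected and Klf1, Alas2 and Hbb-b1 were not, in RNA depleted of globin transcripts. In such bulk RNA, fewer cells of a type and less RNA per cell cannot be told apart.

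Nearly the whole family was detected. With heat 10 of 10 genes had a probe well above background, and in the control 9 of 10, the exception being Tlr5. Of all 37325 genes on the arrays, 19842 had such a probe with heat and 19240 in the control. By probe, 19 of 21 passed with heat and 18 of 21 in the control. Surface receptors had 8 of 9 probes above background with heat and 7 of 9 in the control, and endosomal receptors 11 of 12 on each array. Tlr11 and Tlr12, mouse receptors for protozoan and bacterial proteins that are not among the 10, lacked a probe above background on both arrays.

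**Figure D1:**
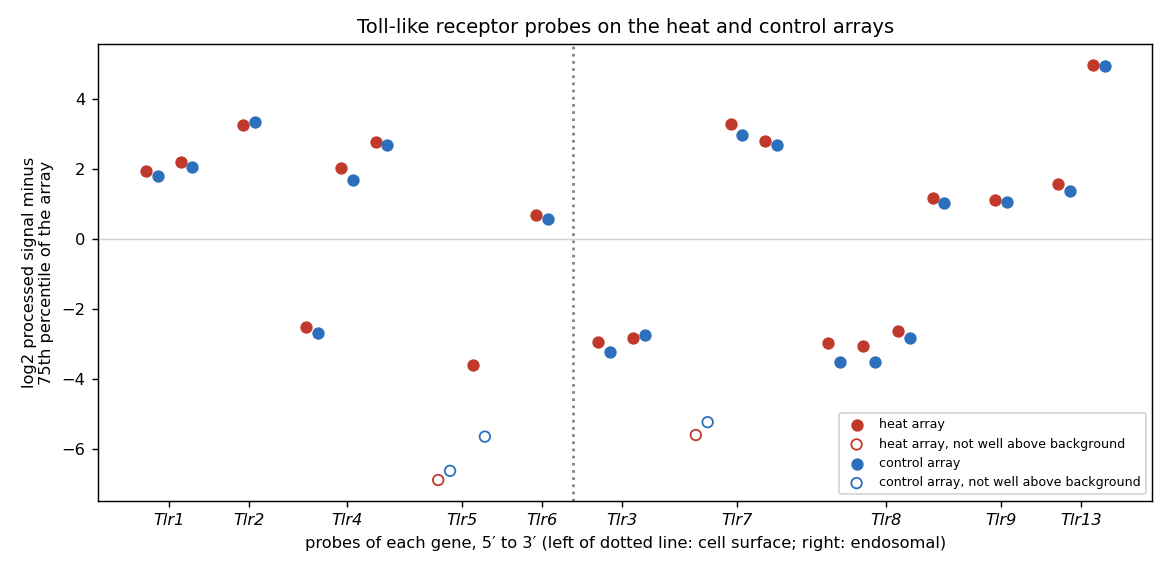
Log2 processed signal minus the 75th percentile of its array (vertical axis) at each of 21 probes, ordered 5′ to 3′ within each gene, for the heat array (red, left of each pair) and the control array (blue), 1 array each. Open circles are not well above background. Signals of different probes depend on their sequences, so only the points of a pair can be compared, and 1 Tlr5 probe is filled with heat and open in the control.

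Differences below are log2 values, heat minus control, after each array's 75th percentile was subtracted, and a gene's value is the mean over its usable probes, those well above background on both arrays. Of 9 genes with a usable probe, 8 were higher on the heat array and 1 was lower, and 0 reached 2-fold. Among all 18685 genes measured in this way 52.2% were higher, and 0.658% were at least 2-fold apart. None of the 9 reached 1.5-fold either, against 2.99% of all genes. The median over the 9 was 0.13, beside 0.01 over all genes, and the differences ran from -0.09 for Tlr2 to 0.34 for Tlr8. For comparison, 87.0% of all genes lay within 0.3 of 0.

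The technical error can be gauged from the arrays themselves, although not the differences between animals. Spots of the same probe printed at several places had an SD of 0.08 in their differences over 283 probes, 0.22 for the 11 of them with signals under 200. Probes of the same gene had a pooled SD of 0.19 over 6512 genes. The scanner software's own error for a difference was about 0.20 at bright probes and up to 0.29 at dim ones among the 18 usable Toll-like receptor probes, and 6 of the 18 differences were larger than it, beside 21.4% of all usable probes.

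Surface receptors that bind bacterial lipopeptides showed small differences. Tlr2, the common partner in these receptor pairs, had a signal of 5755 on the heat array, against 6312 on the control array at its single probe (chr3:83640344-83640403, minus strand). It was the only measured member with a lower level on the heat array, with a difference of -0.09 ± 0.20 (software error), which is within that error. Tlr1, which pairs with Tlr2 to bind triacylated lipopeptides, had signals of 2326 and 2780 at its 2 probes on the heat array, against 2145 and 2574 on the control array. These probes lie within 181 bases on chromosome 5 and gave 0.16 and 0.15, each within its software error of 0.20. Tlr6, the partner of Tlr2 for diacylated lipopeptides, had 974.6 and 914.8 (heat and control) at its probe and a difference of 0.13, also within the error of 0.20. Thus Tlr1 and Tlr6 had higher values with heat and their partner Tlr2 a lower one, each by less than the error of a probe.

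Tlr4 binds lipopolysaccharide of Gram-negative bacteria together with Ly96, and its difference of 0.21 was the highest among the 4 surface receptors with usable probes. Its probe at chr4:66503724-66503782 had 2471 on the heat array, against 1985 on the control array, a 1.28-fold difference after scaling (0.36 ± 0.20, software error). The probe at chr4:66500344-66500403 had 106 and 95.3, or 0.19, and the distal probe 4111 and 3956, or 0.09. The first value lay above the 95th percentile of all probes of signal 200 or more, 0.26, and the other 2 did not leave the range of probes of like signal. Without the distal probe the mean was 0.27, and at the brightest probe alone, the distal one, it was 0.09.

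Tlr5, the receptor for bacterial flagellin, was the only member detected on 1 array alone. One of its probes had a processed signal of 49.2 on the heat array, against 12.3 on the control array, where it was not well above background. The spot's mean signal before background correction was 97.9 on the heat array, against 62.8 on the control array, over local backgrounds of 45.0 and 44.5. The control array's lowest signal that counted as well above background was 31.0. Set against it, this probe's heat signal was 1.63-fold higher after scaling (0.71 on the log2 scale). That value is not a lower bound, because it takes the heat signal as exact and the probe passed detection only on the heat array. The measured difference was 2.04 ± 0.79 (software error) on processed signals. It was 0.56 with normexp and the 75th percentile and 0.49 with normexp and quantile normalization, both under 0.71. The other Tlr5 probe had 5.08 and 6.25 (heat and control), below the level counted as detected on both arrays, so the probes of this gene did not give the same answer.

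The highest difference of a measured receptor was that of an endosomal one. Tlr8, which recognises single-stranded RNA and its breakdown products, had a difference of 0.34, which is the 95th percentile of all genes. From 5′ to 3′ its probes had 76.3, 72.0, 97.7 and 1362 on the heat array, against 54.5, 53.9, 86.6 and 1254 on the control array. All 4 were higher on the heat array, by 0.52, 0.46, 0.21 and 0.16 in that order, so the probe nearest the 3′ end differed least. Only the first and second of them exceeded their software error of 0.29, and only the first lay above 0.49, the 95th percentile of probes with signals under 200. The single Tlr8 probe of signal over 200 gave 0.16, and normexp with quantile normalization gave 0.19 for the gene, so the size of its difference rests on dim probes.

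Tlr7, a close relative of Tlr8 that binds single-stranded viral RNA, had a difference of 0.21. Its probe at chrX:163743146-163743205 had 5919 on the heat array, against 4864 on the control array, 1.25-fold after scaling, or 0.32 ± 0.20 (software error). The probe with AATAAA, farther towards the 3′ end, had 4170 and 3984, or 0.10. The 0.32 exceeded both its error and the 95th percentile of 0.26 for probes of like signal, and the 0.10 exceeded neither. The remaining probe, farthest 5′, was undetected at 12.4 and 16.4 (heat and control), and with it kept the mean was 0.02.

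Tlr3, the receptor for double-stranded RNA that signals through Ticam1, was dim on both arrays. Its probe at chr8:46495198-46495257 had 78.0 on the heat array, against 66.1 on the control array, or 0.28, and the one at chr8:46481729-46481788 had 84.0 and 91.8, or -0.09. The probes thus differed in sign, and the gene's mean of 0.09 carries no direction: with the brightest probe alone it is -0.09. Tlr13, a mouse receptor for bacterial ribosomal RNA, had 1779 and 1583 at chrX:103354821-103354880, or 0.21, and 18967 and 19060 (heat and control) at chrX:103355773-103355832, or 0.03. Its mean was 0.12, and its probe with AATAAA showed nearly the same level on both arrays. Tlr9, which binds unmethylated CpG DNA, had 1310 on the heat array, against 1279 on the control array at its single probe (chr9:106128979-106129038), a difference of 0.07 within its error of 0.20.

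**Figure D2:**
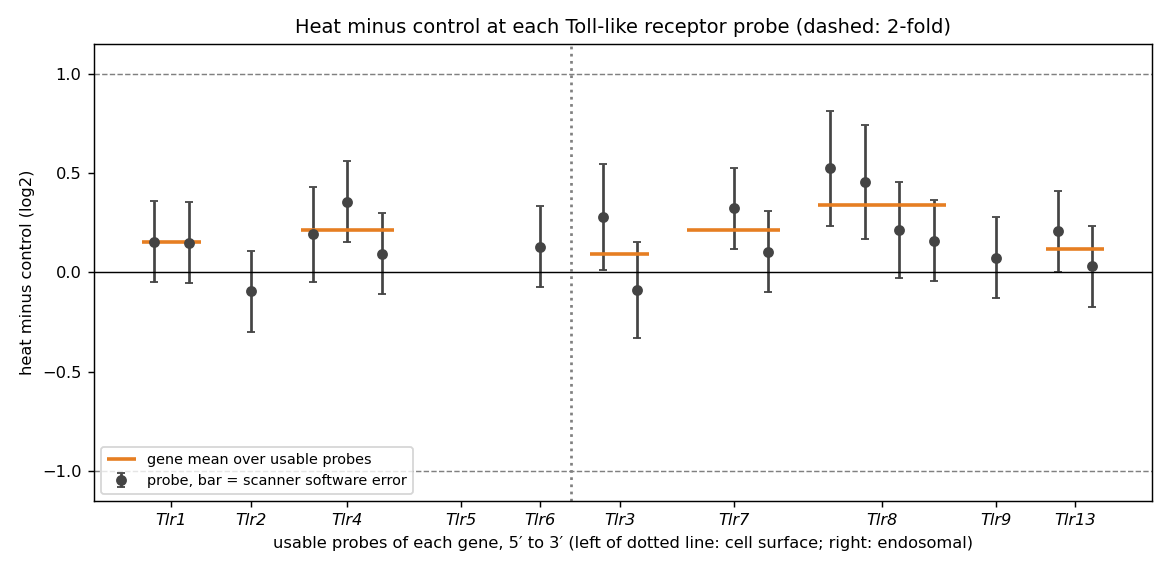
Heat minus control on the log2 scale (vertical axis) at the 18 usable probes, ordered 5′ to 3′ within each gene, with the scanner software's error as bars and the gene mean as an orange line where a gene has more than 1 usable probe. Of 18 points 16 lie above 0, 12 of the 18 bars reach 0, and all 18 points lie inside the dashed lines at 2-fold.

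Surface and endosomal receptors did not separate. The 4 measured surface genes had a median of 0.14 with 3 higher and 1 lower, and the 5 endosomal genes a median of 0.12 with 5 higher. Their ranges overlapped, from -0.09 to 0.21 for surface and from 0.07 to 0.34 for endosomal receptors. Among probes of signal 200 or more, the medians were 0.14 for surface and 0.13 for endosomal receptors. No test of the difference between the groups is possible, since members are not replicates.

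Of the 18 usable probes, 16 were higher on the heat array, beside 51.8% of all usable probes, and 3 lay above the 95th percentile of probes of like signal, 1 each of Tlr4, Tlr7 and Tlr8. Monocyte and macrophage markers were higher for 8 of 11 genes (median 0.08), beside 52.2% of all genes. Of measured B cell markers 3 of 3 were higher (median 0.13), and of neutrophil markers 4 were higher and 3 lower (median 0.01). A lean towards higher values was thus not particular to monocyte and macrophage markers. The signals of each monocyte and macrophage marker's brightest probe summed to 576645 on the heat array, against 584327 on the control array, before scaling. Most of each sum came from Lyz2, Cd68 and Csf1r, with 232300, 149400 and 115900 on the heat array. Divided by each array's 75th percentile, the sums were 955 with heat and 942 in the control. Csf1r, a growth factor receptor of macrophages, had 0.17, and Ccr2, a chemokine receptor of monocytes, was highest at 0.74. The part of any of these cell types in the receptors' differences was not tested.

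**Figure D3:**
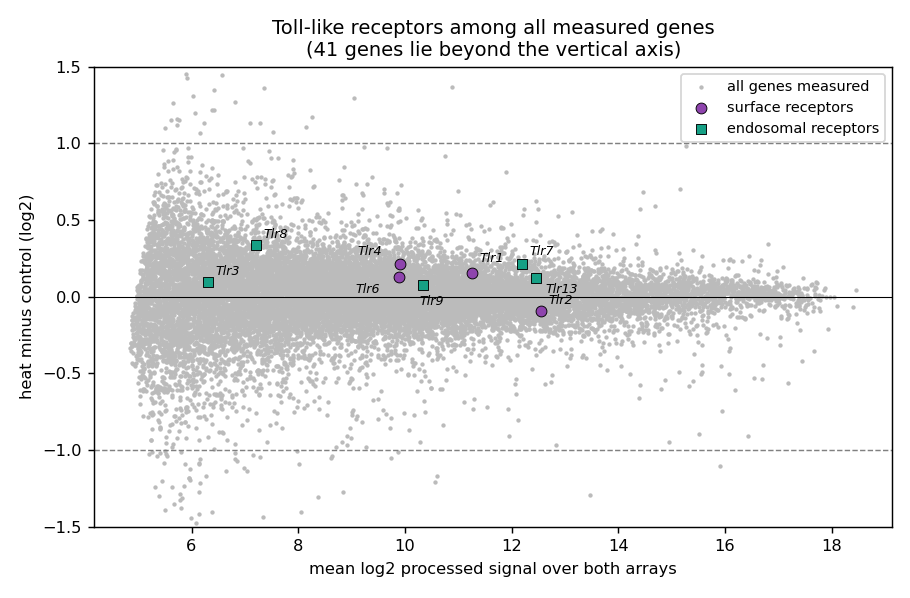
Heat minus control (vertical axis, log2) against the mean log2 processed signal over both arrays (horizontal axis) for 18685 genes in grey, with 4 surface receptors as purple circles and 5 endosomal receptors as green squares. The 9 receptors lie inside the grey cloud between -0.09 and 0.34, and 41 genes lie beyond the plotted range of 1.5 on either side.

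On processed signals, the position of a probe along its gene went with its difference among the receptors. In 6 of 6 receptor genes with at least 2 usable probes, the probe nearest the 3′ end had the lowest difference of heat minus control, beside 45.7% of 6396 such genes on the arrays. The difference of that probe was 0.03 for Tlr13 against 0.21 for its other probe, -0.09 against 0.28 for Tlr3, 0.09 against a mean of 0.27 for Tlr4, 0.10 against 0.32 for Tlr7 and 0.16 against a mean of 0.40 for Tlr8, while Tlr1 had 0.15 against 0.16, which are equal within the spot SD. Across all 6396 genes the median of the 3′-most probe minus the others was -0.02, and across the 6 receptor genes it was -0.20. The share of 45.7% was 54.0% among genes with 2 usable probes, 37.1% with 3 and 23.6% with 4. With normexp correction the 3′-most probe was lowest in 3 of the 6 genes, and with mean minus background in 4. This pattern was seen after the values and was not tested, and in Tlr4 the probe nearest the 3′ end is the distal one. Except in Tlr7, the probe nearest the 3′ end was also the brightest usable one, so position and signal level cannot be told apart.

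Nearly all partners of the receptors were detected on both arrays, 56 of 57 on each. Among all 37325 genes, 19842 were detected with heat and 19240 in the control. Of 57 genes in 7 lists of co-receptors, trafficking proteins, adaptors, kinases, ubiquitin ligases, transcription factors and negative regulators, 56 were measured, 33 of them higher on the heat array and 23 lower, with a median of 0.02. Of all genes 52.2% were higher. None of the 56 was 2-fold apart, against 0.658% of all genes, and 1 was 1.5-fold apart, against 2.99%, so these counts lie near the background. Hsp90b1, Ctsb, Il1rl1, Csf1r and Ccr2 are named after their values were seen. The gene past 1.5-fold was the adaptor Sarm1, which limits signalling through Ticam1, at -0.59, with dim signals of 51.9 on the heat array, against 80.4 on the control array. The lists are described by these counts only, and they were not compared by a test.

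At the cell surface, 4 of 5 measured co-receptors were higher and 1 was lower, with a median of 0.03. Cd14, which hands lipopolysaccharide to Tlr4, had 0.03, and Ly96, the subunit of the Tlr4 complex that holds the lipid, 0.08. Cd36, a scavenger receptor that helps Tlr2 with its ligands, was highest at 0.11, and Cd180, a relative of Tlr4, was lowest at -0.10. Lbp, the plasma protein that binds lipopolysaccharide and is made in the liver, was not detected on either array.

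Among 11 genes of receptor trafficking, folding and cleavage, 5 had higher values with heat and 6 had lower ones, and the median was -0.01. Unc93b1, which carries the nucleic acid receptors to endosomes, and Hsp90b1, the chaperone that folds Toll-like receptors, had equal levels on both arrays to within 0.01. Ifi30, a lysosomal thiol reductase, was highest at 0.11. The cathepsin genes Ctss and Ctsb, for proteases of the lysosome, were lowest at -0.42 and -0.32, with Ctss at 151600 on the heat array, against 208300 on the control array. Each rested on 1 probe.

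Of 6 adaptors, 3 were higher and 3 lower. Myd88, the adaptor of nearly all Toll-like receptors, had 0.07, and Ticam1, used by Tlr3 and Tlr4, had -0.03. Ticam2, which links Tlr4 to Ticam1, was highest at 0.28 and gave 0.27 and 0.29 at its 2 probes, although its signal was only 114.5 on the heat array, against 97.7 on the control array. Of 11 kinases 6 were higher, with Irak4, the first kinase after Myd88, at -0.02, Map3k8 highest at 0.15 and Ripk1 lowest at -0.05. Of 8 ubiquitin ligases and partners 5 were higher, with Traf6 at -0.07, Peli2 highest at 0.20 and Ube2n lowest at -0.41, whose 2 probes gave -0.74 and -0.08.

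Of 7 transcription factors 5 were higher. Irf8, a factor of the monocyte and dendritic cell lineages, was highest at 0.31, with 0.25 and 0.37 at its 2 probes, Irf7, the interferon regulator downstream of Tlr7 and Tlr9, had 0.11, and Rel of the NF-kB family was lowest at -0.18. Of 8 negative regulators 5 were higher. Sigirr, an inhibitory member of the interleukin-1 receptor family, was highest at 0.30. Its single probe was dim, with 192.9 on the heat array, against 160.7 on the control array. Irak3, an inactive kinase of macrophages, had 0.19 with 3 of 3 probes between 0.18 and 0.21, and Tollip had 0.13. Socs1, a suppressor of cytokine signalling, was lowest at -0.55 with 177 on the heat array, against 266 on the control array, and Il1rl1, the receptor for interleukin-33, had -0.54 at signals under 100.

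**Figure D4:**
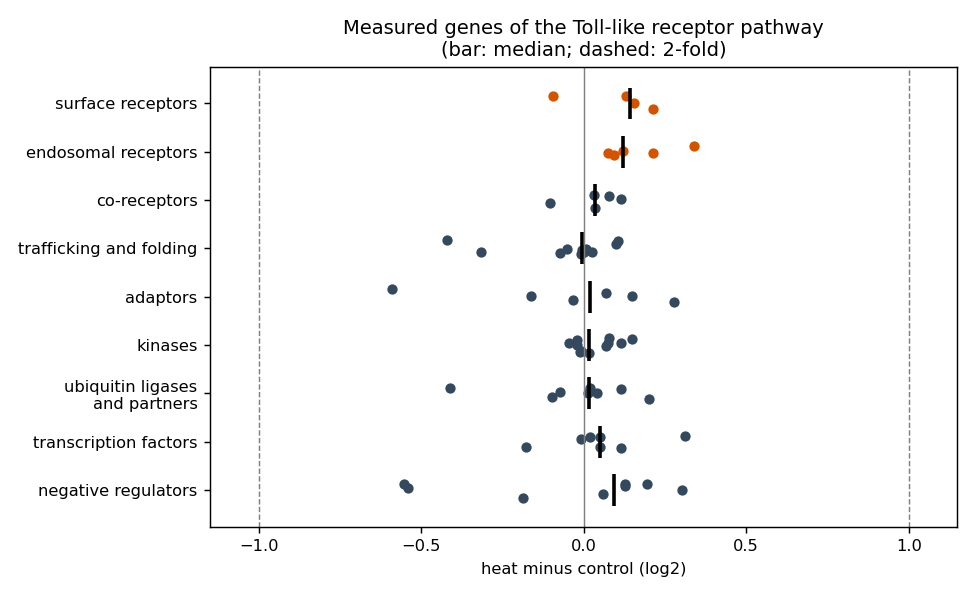
Heat minus control (horizontal axis, log2) for each measured gene of the receptor groups (orange) and of 7 lists of pathway partners (dark), with a bar at each median. The receptor medians of 0.14 and 0.12 stand beside list medians from -0.01 to 0.09, and every point lies inside the dashed lines at 2-fold.

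Values of single receptors depended on the processing. Over the alternatives run, the difference stayed above 0 for Tlr1 (0.15 to 0.23), Tlr4 (0.09 to 0.27), Tlr6 (0.12 to 0.13), Tlr7 (0.02 to 0.32), Tlr8 (0.16 to 0.34), Tlr9 (0.07 to 0.16) and Tlr13 (0.03 to 0.12), and below 0 for Tlr2 (-0.11 to -0.09). The value of Tlr3 ran from -0.09 to 0.10. Tlr9 had 0.16 and Tlr13 0.05 with normexp and quantile normalization, so the order of the receptors by difference was not fixed.

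**Figure D5:**
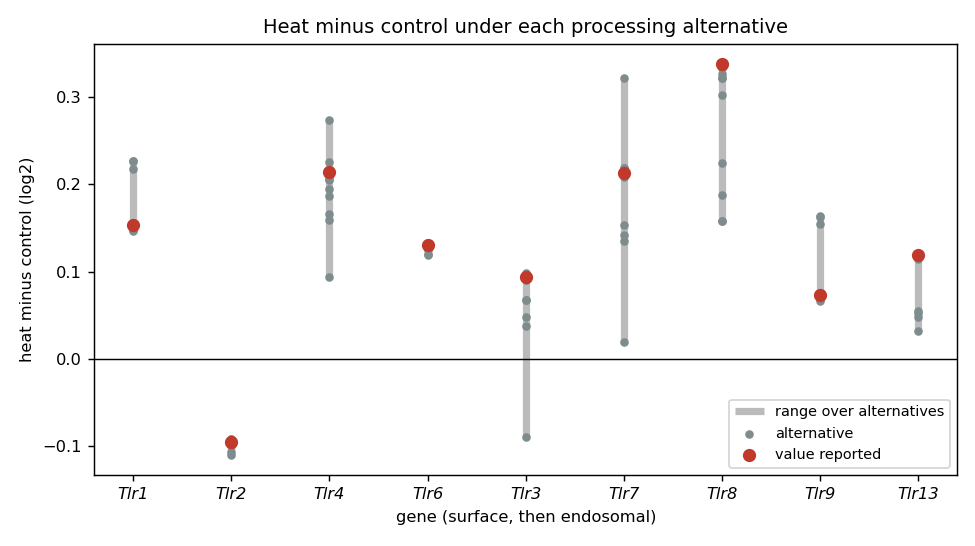
Heat minus control (vertical axis, log2) of the 9 measured receptor genes, with the value reported in red, each alternative in grey and a bar over their range. Tlr2 stays below 0 throughout, Tlr3 crosses 0, and Tlr7 has the widest range of those above 0.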

How the data were processed

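Total RNA of mouse blood was depleted of globin transcripts and labelled with Cy3, per the labels' protocols, which mention 3 replicates where 1 array a group was analysed here. The deposited scanner files hold linear intensity values of the green channel and their error, made by Agilent Feature Extraction 10.7.1.1, per the file headers (9.1 per the submitters' processing notes). The authors' deposited table holds log2 values with a median of 5.27 in both columns, which correlated at 1.0 with quantile-normalized log2 processed signals.

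Spots flagged as outliers (168 with heat, 149 in the control) were dropped and spots of a probe were averaged on the log2 scale. Each array's 75th percentile (604 with heat, 621 in the control) was subtracted. A probe was well above background where over 0.5 of its spots were flagged. Symbols came from RefSeq's GRCm38.p6 table for 32994 of 35886 probes with a RefSeq record, otherwise from the files. Named partners are the highest and lowest of each list and 10 defining partners. No statistical test was run. The steps were run on simulated data with planted differences of over 2-fold, which says nothing about differences as small as those of the receptors. Alternatives covered background correction, scaling, detection, probe choice and the fold threshold. Some markers and a probe sequence are not reported here. Members and lists were chosen with earlier results of these data known. R 4.3.3, limma 3.58.1, Python 3.11.15, numpy 2.4.6 and pandas 2.3.3 were used.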

Additional observations from a re-analysis of the deposited data

How the results depend on the processing

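The medians of surface and endosomal receptors moved by less than the spot SD of 0.08 under all 11 alternatives computed for every gene, 0 receptor genes were 2-fold apart under each of them and at a 1.5-fold threshold, and pathway genes were 29 to 36 higher and 21 to 26 lower. The count of all genes at least 2-fold apart, 123, became 39 with normexp and quantile normalization, 37 with normexp and the 75th percentile, 1748 with dim probes kept, 24 with only probes of signal 200 or more (added after seeing the data, as was leaving out the distal Tlr4 probe) and 558 at 1.5-fold. With the software's weaker flag for a positive and significant signal, 10 of 10 receptor genes passed on both arrays, including Tlr5. The Tlr5 probe that was well above background with heat passed this flag on both arrays, and the other Tlr5 probe passed in the control only. Tlr3 has no probe of signal 200 or more and so no value there. No paired analysis was possible because each group held 1 array. Signal near background limits Tlr3, Tlr5 and 3 of the 4 Tlr8 probes, and spread between animals or between RNA preparations was not measured.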
